A study of Caenorhabditis elegans with 2 samples.

Results

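Regions of DAF-12 chromatin immunoprecipitation with a high signal in each of 2 biological replicates, but outside the authors' list of reproducible peaks, were 295 of the 30000 regions called on the pooled reads, or 0.988% of the 29850 pooled regions outside that list. They came from whole L3 larvae of mixed sex of Caenorhabditis elegans strain OP222, which is unc-119(ed3) III and carries the transgene wgIs222, an insertion that gives an eGFP-tagged DAF-12. Both samples had this 1 genotype, stage and antibody target, so no condition could be compared. The submitters' peak list was made with the irreproducible discovery rate (IDR), which asks how well the ranks of a peak match between replicates. It held 150 peaks on the ce11 build, and these were the 150 pooled regions of highest signal. The regions described here were chosen by measured values: a pooled region outside the IDR list was kept when its summit lay within 100 bp of a summit among the 5000 regions of highest signal in replicate 1, and also within 100 bp of one among the 5000 of highest signal in replicate 2. The remaining pooled regions outside the IDR list comprised 6687 near such a summit in 1 replicate (3060 in replicate 1 and 3627 in replicate 2), called one-replicate regions here, and 22868 near none in either. The deposited lists give a signal value for each region, on a scale that was not stated, and no read counts, so the depth behind a value is unknown.

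DAF-12 is a nuclear hormone receptor that binds steroid hormones called dafachronic acids. With its hormone it promotes reproductive development and switches on let-7 family microRNAs that time larval cell fates. Without hormone it acts with the corepressor DIN-1 in the arrested dauer stage. It is known to contact DNA through zinc fingers at hexamers of the AGTGCA kind, often as closely spaced repeats.

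The windows below show the 101 bases around the summit of 7 of these regions, on the plus strand of ce11 (RefSeq WBcel235), chosen among those of high pooled signal or near a gene of the timing, chaperone and hormone pathways discussed below. Capitals mark the hexamer AGTGCA, its variant with a different last letter, AGTGCG, and the pentamer GAGAG. Each was read on either strand, so that on the minus strand the first appears as TGCACT, its variant appears as CGCACT and the pentamer as CTCTC.
zfp-3 upstream, chrX:1446873-1446973: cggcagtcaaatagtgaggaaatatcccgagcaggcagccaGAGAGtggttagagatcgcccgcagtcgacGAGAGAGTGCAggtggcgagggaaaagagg
fkh-7 intron, chrIV:5593807-5593907: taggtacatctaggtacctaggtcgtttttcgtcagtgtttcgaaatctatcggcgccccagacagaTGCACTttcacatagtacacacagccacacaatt
F45D3.2 intergenic, chrV:12536499-12536599: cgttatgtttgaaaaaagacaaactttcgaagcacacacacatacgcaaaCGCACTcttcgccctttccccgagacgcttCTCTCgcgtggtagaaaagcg
myrf-2 intron, chrX:10188533-10188633: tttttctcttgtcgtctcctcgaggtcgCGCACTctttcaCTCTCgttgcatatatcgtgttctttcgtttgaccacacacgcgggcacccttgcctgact
lin-42 coding exon, chrII:1239685-1239785: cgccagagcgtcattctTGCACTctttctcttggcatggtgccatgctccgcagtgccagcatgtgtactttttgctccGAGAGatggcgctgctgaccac
hsp-3 upstream, chrX:6092263-6092363: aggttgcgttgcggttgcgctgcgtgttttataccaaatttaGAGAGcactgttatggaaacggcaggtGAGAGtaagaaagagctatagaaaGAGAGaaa
din-1 intergenic, chrII:11635915-11636015: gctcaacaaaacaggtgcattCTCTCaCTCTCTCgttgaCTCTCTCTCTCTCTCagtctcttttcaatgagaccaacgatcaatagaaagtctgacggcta

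The zfp-3 window held GAGAG 3 times and AGTGCA once, with GA repeat and hexamer overlapping in 1 run. The fkh-7 and lin-42 windows each held AGTGCA once, and the myrf-2 and F45D3.2 windows each held AGTGCG once beside GAGAG. The din-1 window carried GAGAG 9 times, counting overlaps, each starting within 29 bp to the left of the summit. These matches are letters in a window and not measured sites.

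In signal the regions formed a band below the IDR peaks. Because the IDR peaks are the 150 pooled regions of highest signal, the regions could only lie below them. Their pooled signal ran from 12.2 to 33.45, with a median of 25.01, and the IDR peaks ran from 33.49 to 178 with a median of 43.0. In replicate 1 the regions had signals from 9.20 to 23.3 (median 11.4), and in replicate 2 from 10.6 to 22.7 (median 12.8). The signals in the replicates chose the regions, so these ranges describe the choice. At the edges, the last IDR peak stood at 33.49 and the first region outside at 33.45, rank 151. The 5000th region had a signal of 9.19 in replicate 1 and 10.6 in replicate 2. The largest distance between a pooled and a replicate summit that was let in was 99 bp (1 region), and the smallest that was not was 102 bp (1 region).

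**Figure D1:**
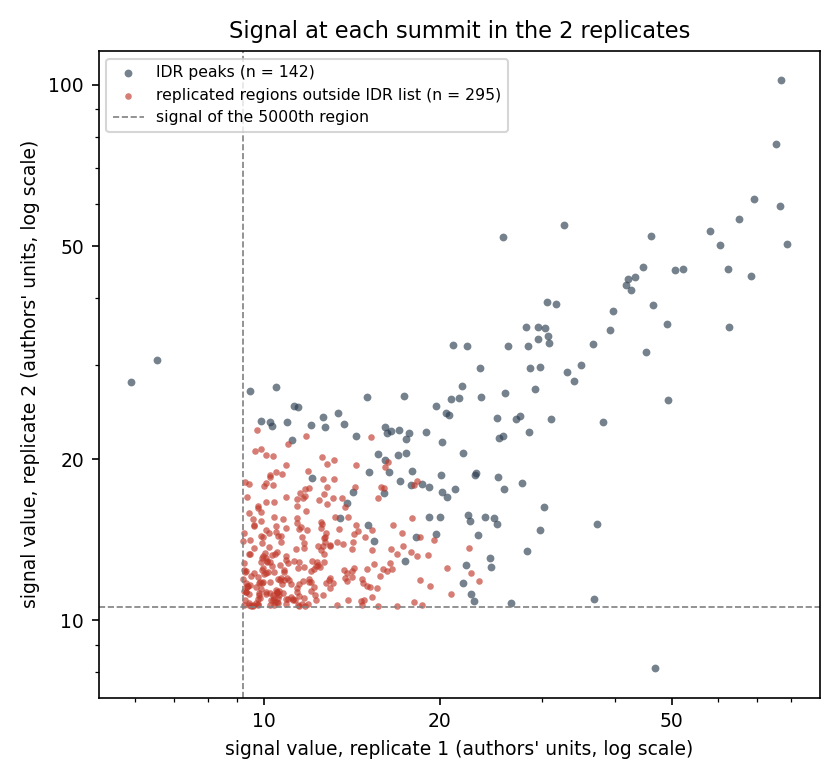
Signal of each region at its summit in replicate 1 (horizontal) and replicate 2 (vertical), in the authors' units on log axes, for the 295 replicated regions (red) and the 142 IDR peaks with a summit within 100 bp in both replicate lists (dark). Dashed lines mark the signal of the 5000th region in each replicate, 9.19 and 10.6, and the red points fill the corner just above both lines, up to 23.3 and 22.7.

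The rule also bounds how far the replicates can differ within this band, so the following values describe the regions and are no comparison. Replicate 2 was higher in 214 of the 295 regions and replicate 1 in 81, and its 5000th region also had the higher signal. On the log2 scale the difference between replicates had an SD of 0.38 over the 295 regions. Only 4 regions differed by over 2-fold. No region stood among the 150 highest of both replicates, while 6 did so in replicate 1 and 10 in replicate 2, and 30 stood among the 1000 highest of both. The median of the larger of each region's summit distances was 41 bp.

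The place of the regions in the pooled list follows largely from their choice, since the pooled signal was close to the sum of the replicate signals that chose them (median ratio 0.987). As a description, they were 85 of the 150 regions at ranks 151 to 300 (56.7%), 72 of 200 at ranks 301 to 500 (36%), 71 of 500 at ranks 501 to 1000 (14.2%) and 43 of 1000 at ranks 1001 to 2000 (4.3%). Beyond rank 2000 there were 24, of which 4 lay beyond rank 5000, the lowest at rank 14233 upstream of suca-1, a succinyl-CoA ligase subunit. The median rank was 462, and 228 of the 295 lay within rank 1000. Of the 150 IDR peaks, 139 met the same demand on both replicates and 11 met it in 1 replicate. At ranks 151 to 300, 63 regions were near a top summit of 1 replicate and 2 of neither.

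**Figure D2:**
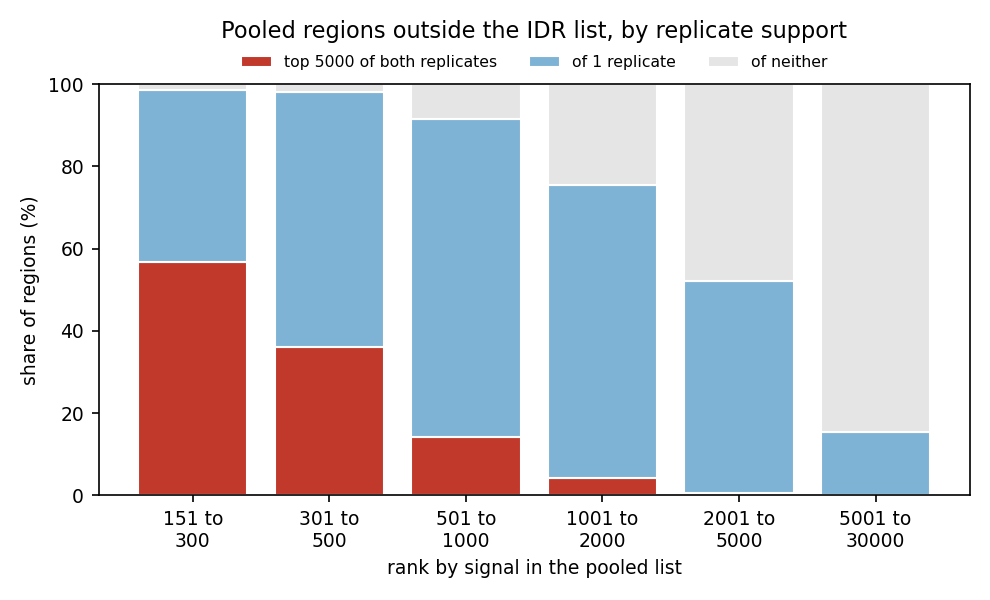
Share of the pooled regions outside the IDR list (percent, vertical) with a summit near the 5000 highest of both replicates (red), 1 replicate (blue) or neither (grey), by rank of pooled signal (horizontal). The red share falls from 56.7% at ranks 151 to 300 to 4.3% at ranks 1001 to 2000, a fall that the choice of regions largely fixes.

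The 20 regions of highest pooled signal, from 33.45 down to 31.9, lay mainly close to gene starts. For 16 of them a start of a protein-coding or microRNA gene (TSS) lay within 2 kb, and for 14 within 500 bp. The highest, rank 151, was 92 bp upstream of pfd-6, a subunit of the prefoldin chaperone, with signals of 33.45 pooled, 10.99 in replicate 1 and 21.4 in replicate 2. It was thus among the stronger regions of replicate 2 (rank 116) and far down in replicate 1 (rank 2146). Rank 152 was 58 bp upstream of tmem-107, a gene of the ciliary transition zone, and 399 bp from the start of rps-26, a protein of the small ribosomal subunit, with 33.45 pooled, 16.1 and 19.4. Rank 153 was 298 bp upstream of pcn-1, the sliding clamp of DNA replication, with 33.4 pooled, 12.6 and 20.2. The zfp-3 region, 280 bp upstream of this zinc-finger gene, ran the other way, with 33.2 pooled, 22.5 in replicate 1 and 13.7 in replicate 2.

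Others among these 20 stood near genes of chromatin, membrane traffic and RNA. The let-526 region, in an intron of a gene for a SWI/SNF chromatin-remodelling subunit, was nearly even between the replicates, with 18.3 and 18.2 and a pooled signal of 32.9. The scc-2 region, 171 bp upstream of the start of the cohesin loader gene, had 32.0 pooled, 19.1 and 13.3. The region 259 bp upstream of vps-4, an ATPase of the endosomal sorting pathway, had 32.1 pooled, 13.2 and 18.4. The smu-1 region, 38 bp upstream of a splicing factor gene, had 32.0 pooled, 20.6 and 12.5, and the cmtr-1 region, 204 bp upstream of an mRNA cap methyltransferase gene, had 31.9 pooled, 12.6 and 18.4. The remaining starts within 2 kb belonged to F57G12.1, F26F2.7, eat-16 (a regulator of G protein signalling), mdl-1 (a Mad-like transcription factor), ufd-3, mig-38 (a gene of gonad cell migration) and Y55F3AR.2. Replicate 2 was the higher in 13 of the 20 regions.

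The other 4 of these 20 had no such start within 2 kb. The fkh-7 region lay in an intron of a forkhead factor gene, 7850 bp from the nearest start, with 32.7 pooled, 11.9 and 19.03. Rank 158 lay 6146 bp from the start of odr-3, a G protein subunit of olfactory neurons, with 33.1 pooled, 12.4 and 16.8. The W01H2.2 region was 4606 bp and the F45D3.2 region 4490 bp upstream of those genes. The F45D3.2 region also lay 1164 bp from an IDR summit.

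Most of the regions lay far from IDR summits, and so did the one-replicate regions. Within 2 kb of an IDR summit lay 6 of 295 regions (2.03%) and 71 of 6687 one-replicate regions (1.06%). The other 289 regions had a median distance of 236903 bp, and the median over all one-replicate regions was 2.58e+05 bp. This spacing is therefore not particular to the regions, and it was not tested. The nearest of the 295 regions, rank 256, was 201 bp from an IDR summit on X, with 28.4 pooled, 15.2 and 22.02. It lay 1567 bp from the start of F19H6.5. The others within 2 kb were the F45D3.2 region, xbp-1 (8 bp upstream of the start of this unfolded-protein-response factor), lin-42 and a pair at daf-12. The regions were also apart from each other, since 10 lay within 2 kb of another and none of the 295 merged at 500 bp.

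Counted by genes, the regions added more starts than the IDR peaks hold. Of 20234 genes coding for proteins or microRNAs, 318 (1.57%) started within 2 kb of a region and 167 (0.825%) within 2 kb of an IDR peak. Of the 167 genes near an IDR peak, 6 also had a region, where 1.57% of all genes had one, so this overlap is not a low one. The regions thus added 312 genes, for 479 in all. These shares rest on how many regions each set holds and are counts, not a test.

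The share of regions near a TSS was above that of the one-replicate regions. Its difference from the IDR peaks did not pass the test. The one-replicate regions were weaker in pooled signal (median 15.05, against 25.01), and 6114 of the 6687 lay beyond rank 1000. Since the rule chose on signal, differences from them, here and below, also set stronger against weaker regions. The part of signal in these differences was not tested. A TSS lay within 500 bp of 114 of the 295 regions (38.6%, exact 95% interval 33.1 to 44.5%), of 59 of 150 IDR peaks (39.3%, 31.5 to 47.6%) and of 1791 of 6687 one-replicate regions (26.8%, 25.7 to 27.9%). The odds ratio was 1.72 against the one-replicate regions (two-sided Fisher's exact test, Benjamini-Hochberg adjusted over 36 tests, adjusted exact p = 0.000123) and 0.971 against the IDR peaks (adjusted exact p = 1). Against the IDR peaks the difference passed when replicate 1 or replicate 2 was left out (odds ratios 0.567 and 0.623, over 3922 and 3355 regions). Leaving out replicate 1 adds the 3627 one-replicate regions of replicate 2, and leaving out replicate 2 adds the 3060 of replicate 1. Here and below, such sets therefore describe mostly one-replicate regions. Among pooled ranks to 1000 the difference from the one-replicate regions was smaller, 40.4% against 30.9%, and no longer passed (odds ratio 1.51, adjusted exact p = 0.0921). A TSS lay within 1 kb of 164 regions and within 2 kb of 216. Of the 114 summits within 500 bp, 93 lay upstream of the start (81.6%), against 55 of 59 for IDR peaks (93.2%) and 1027 of 1791 for one-replicate regions (57.3%), a comparison made after the values were seen and not tested.

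By annotation, 109 regions lay upstream of a gene to 2 kb, 82 in introns, 55 in other intergenic sequence, 22 in coding exons, 17 in 3′ UTRs and 10 in 5′ UTRs. The upstream share of 36.9% stood between the 24.7% of the one-replicate regions (odds ratio 1.79, adjusted exact p = 6.81e-05) and the 50.7% of the IDR peaks (odds ratio 0.571, adjusted exact p = 0.026). The coding-exon share of 7.46% likewise stood between 16.8% in the one-replicate regions (odds ratio 0.400, adjusted exact p = 6.81e-05) and 1.33% in the IDR peaks, where only 2 of 150 lay in coding exons (odds ratio 5.96, adjusted exact p = 0.026). Each of these 4 differences missed the threshold among pooled ranks to 1000, with odds ratios of 1.41, 0.612, 0.570 and 5.59 in that order. Without replicate 1 or 2 the sets were 3922 or 3355 regions, mostly one-replicate regions. There the odds ratio for coding exons against IDR peaks was 13.8 or 14.5 and that for upstream sequence 0.330 or 0.344. The intron, intergenic and UTR shares did not pass against either set at these settings, but with summits matched within 50 bp the 5′ UTR share passed against the one-replicate regions (odds ratio 2.92, adjusted exact p = 0.032), and without replicate 1 or 2 the intron share passed against the IDR peaks (odds ratios 2.03 and 2.00).

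**Figure D3:**
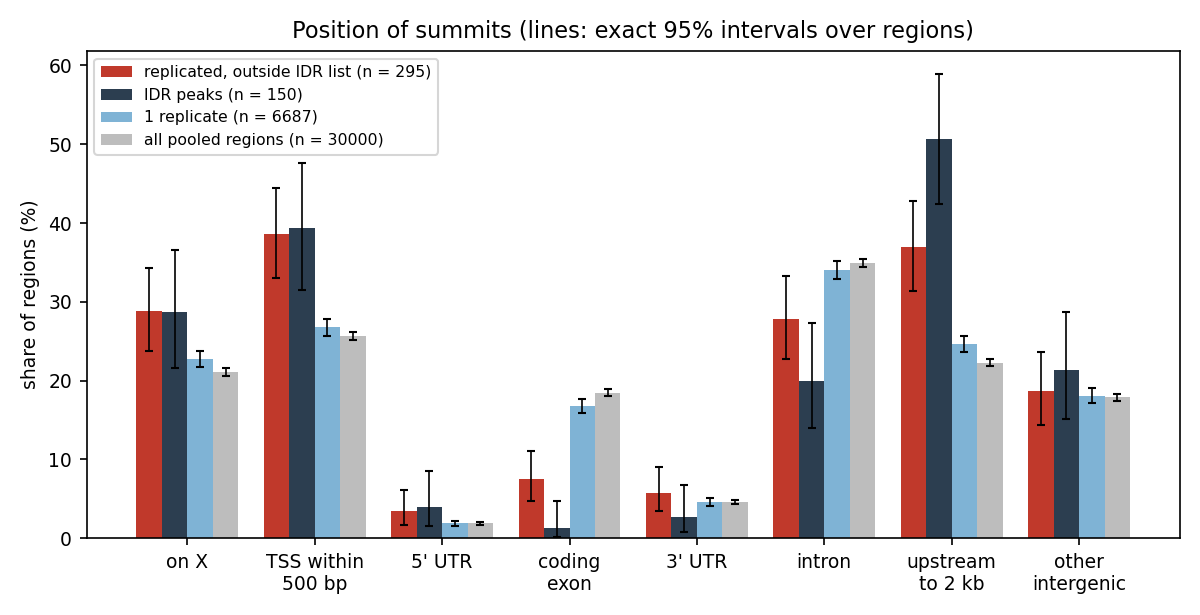
Share of regions (percent, vertical) on X, within 500 bp of a TSS and in each annotation class, for replicated regions outside the IDR list (red), IDR peaks (dark), one-replicate regions (blue) and all pooled regions (grey). Lines are exact 95% intervals over regions, and the red bars for coding exons and upstream sequence stand between the dark and the blue ones.

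The regions lay on all 6 chromosomes, with the largest number on X. There were 85 on X (28.8%), 50 on V, 48 on IV, 39 on I, 38 on III and 35 on II, while X holds 17.7% of the nuclear genome and 6321 of the 30000 pooled regions (21.1%). The IDR peaks had 43 of 150 on X (28.7%), giving an odds ratio of 1.01 (adjusted exact p = 1). The one-replicate regions had 22.7% on X, and the difference did not pass the adjusted threshold (odds ratio 1.38, exact p = 0.0161, adjusted exact p = 0.058). Without the regions around daf-12 and unc-119 the shares were 27.3% and 22.3% (odds ratio 1.31, adjusted exact p = 0.134). The regions on X were more frequent at lower signal: 56 of 228 to rank 1000 were on X (24.6%), and 29 of the 67 beyond it (43.3%), where 1378 of 6114 one-replicate regions were on X (22.5%). Without the regions around daf-12, 26 of the remaining 64 beyond rank 1000 were on X (40.6%). This split was made after the values were seen and was not tested.

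On X the regions lay near starts more often than the one-replicate regions did. A TSS lay within 500 bp of 32 of the 85 on X (37.6%, exact 95% interval 27.4 to 48.8%), of 9 of the 43 IDR peaks there (20.9%, 10.04 to 36.04%) and of 305 of 1517 one-replicate regions there (20.1%). The odds ratio against the one-replicate regions was 2.40 (adjusted exact p = 0.0104) and against the IDR peaks 2.28 (adjusted exact p = 0.316). On autosomes the shares were 39.0% of 210 regions, 46.7% of 107 IDR peaks and 28.7% of 5170 one-replicate regions (odds ratio 1.59, adjusted exact p = 0.0106). This split was made after the values were seen, and the difference between X and autosomes was not tested.

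**Figure D4:**
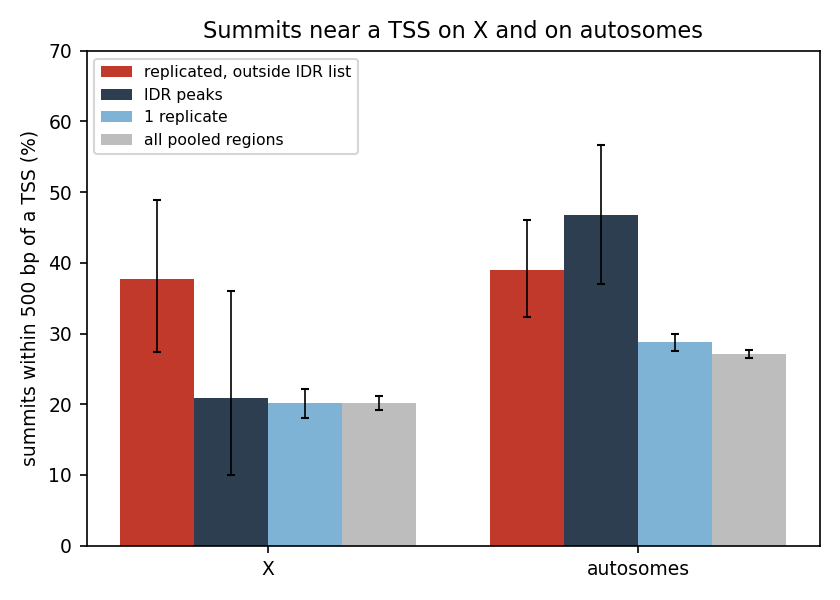
Share of summits within 500 bp of a TSS (percent, vertical) on X and on autosomes, for the 4 sets in the same colours, with exact 95% intervals over regions. The red bar on X, 37.6%, is near the red bar on autosomes, 39.0%, while the dark bar is 20.9% on X and 46.7% on autosomes.

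The summit windows carried GA repeats and AGTGCA more often than the one-replicate regions. The 10 motifs searched on both strands within 50 bp of the summit comprised 7 receptor hexamers, namely AGTGCA and the variants of it AGTGTG and AGTGCG, then the hexamers AGTACA and AGTTCA, and last the estrogen-receptor type AGGTCA with its variant AGGACA. The others were the repeat pentamer GAGAG, the hexamer TTATCA of a kind bound by endoderm zinc-finger factors, and the heptamer TGAGTCA of a kind bound by leucine-zipper factors such as Jun and Fos. One window may hold several, also overlapping. GAGAG was in 85 of 295 windows (28.8%, exact 95% interval 23.7 to 34.35%), 46.7% of IDR windows, 14.8% of one-replicate windows and 13.2% of all pooled windows. The share was above that of the one-replicate regions (odds ratio 2.33, adjusted exact p = 9.21e-08) and below that of the IDR peaks (odds ratio 0.463, adjusted exact p = 0.00137). The latter difference missed the threshold among ranks to 1000 (odds ratio 0.549, adjusted exact p = 0.0809) and among windows of 35 to 50% GC (odds ratio 0.669, adjusted exact p = 0.546), and was larger without replicate 1 or 2 (odds ratios 0.198 and 0.239).

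AGTGCA was in 29 windows (9.83%, exact 95% interval 6.68 to 13.8%), 12.7% of IDR windows, 3.92% of one-replicate windows and 3.66% of all pooled windows. It passed against the one-replicate regions (odds ratio 2.67, adjusted exact p = 0.000123) and not against the IDR peaks (odds ratio 0.752, adjusted exact p = 0.603). Against the IDR peaks it passed only in the sets without replicate 1 or replicate 2, which are mostly one-replicate regions (odds ratios 0.303 and 0.334, over 3922 and 3355 regions). AGTGCG was in 14 windows (4.75%), against 1.96% in one-replicate windows (odds ratio 2.49, adjusted exact p = 0.0254) and 1.63% of all, but it missed the threshold among ranks to 1000 (odds ratio 1.91, adjusted exact p = 0.254). At least 1 of these 2 hexamers or of the pentamer was in 107 windows (36.3%, against 17.4% of all), 15 had both the pentamer and the hexamer AGTGCA, and 134 had none of the 10 motifs. The other 7 motifs did not pass against either set at these settings. With summits matched within 50 bp, AGTGTG passed against the one-replicate regions (odds ratio 2.15, adjusted exact p = 0.0499), and with windows of 100 bp to either side, TTATCA passed against the IDR peaks (odds ratio 2.25, adjusted exact p = 0.0254). Without replicate 1 or 2, the hexamer TTATCA and receptor hexamers 2, 3 and 4 of the motif plot passed against the IDR peaks.

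GC content differed between the sets beside these motifs. The median GC of the windows was 37.6% in the regions, 47.5% in IDR peaks and 33.7% in one-replicate and in all pooled regions. Repeat content differed as well. Letters masked in the reference sequence made up at least 50% of the window in 18.3% of the regions and 4.67% of IDR peaks. For one-replicate regions this was 28.6%, and for all pooled regions 31.2%. The part of masked sequence was not tested. Within windows of 35 to 50% GC, GAGAG (38.9% against 22.2%, odds ratio 2.23) and AGTGCA (14.5% against 4.83%, odds ratio 3.34) passed against the one-replicate regions, each with an adjusted exact p of 0.00046. Among ranks to 1000 both also passed, at odds ratios of 1.76 (adjusted exact p = 0.0259) and 2.82 (adjusted exact p = 0.021). Neither cut matched GC or signal between the sets within it. The part of GC and of signal in these motif differences was not tested.

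**Figure D5:**
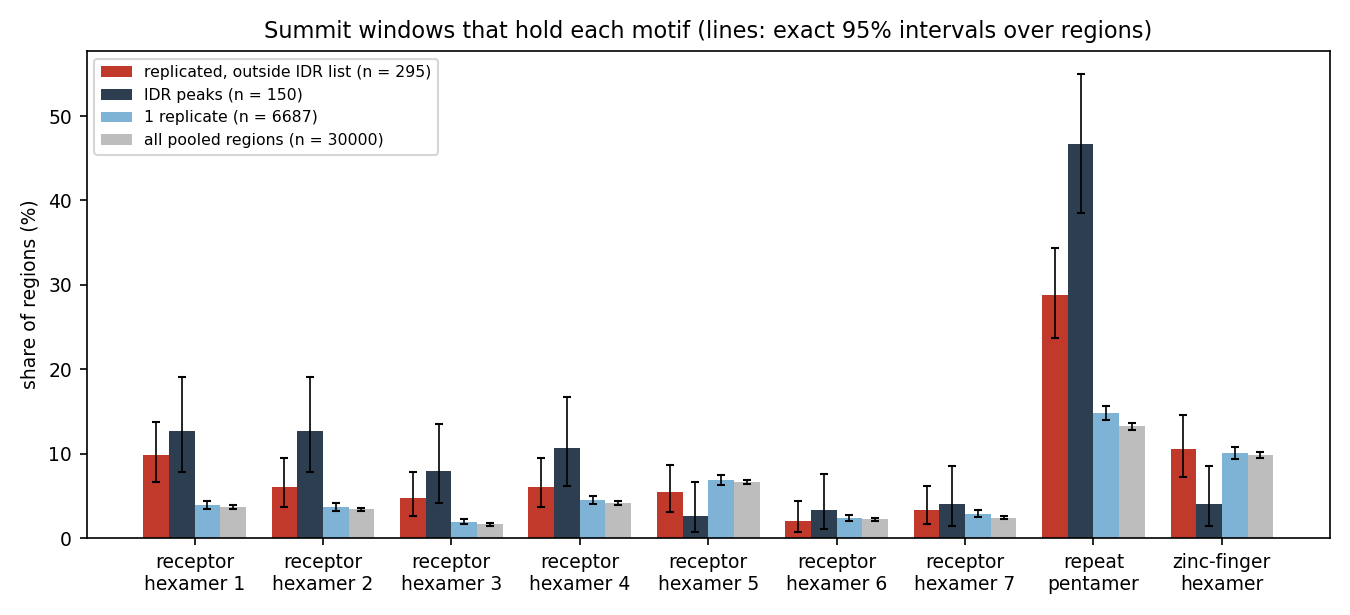
Share of summit windows (percent, vertical) that hold each motif, in the same colours, with exact 95% intervals over regions. Receptor hexamer 1 is AGTGCA, hexamer 2 is AGTGTG, hexamer 3 is AGTGCG, hexamer 4 is AGTACA, hexamer 5 is AGTTCA, hexamer 6 is AGGTCA and hexamer 7 is AGGACA, the pentamer of the repeat type is GAGAG and the last hexamer is TTATCA, and the red bars for GAGAG (28.8%) and AGTGCA (9.83%) lie above the blue ones.

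Of the genes of developmental timing, 3 of 24 had a region within 2 kb, against 7 of 24 for the IDR peaks, that is 12.5% and 29.2%, where the shares over all protein-coding and microRNA genes were 1.57% and 0.825%. The lin-42 region lay in a coding exon 366 bp from a start of this Period-related timing gene, 1609 bp from an IDR summit, with 28.2 pooled, 12.6 in replicate 1 and 15.1 in replicate 2. The myrf-2 region lay 113 bp from a start of a transcription factor gene that acts upstream of lin-4, with 22.2 pooled, 9.93 and 13.1, and it is the only timing gene that the regions add. Replicate 1 was near its lower limit there, at rank 3560.

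The daf-12 locus held 5 regions nearest to that gene, at ranks 205, 325, 385, 1190 and 1539. The strongest, in an intron, had 30.7 pooled, 19.6 and 14.1, and the one 43 bp upstream of a start had 25.9 pooled, 9.35 and 16.97. A sixth region lay near F13E6.1, within 50 kb. In the windows of 50 kb around daf-12 and unc-119 the regions were 6 of 91 pooled regions (6.59%, against 0.988% of pooled regions outside the IDR list), and all 6 were near daf-12. The strain carries a daf-12 transgene, and its part in this was not tested. The dafachronic acid list of 11 genes had daf-12 as its 1 member near a region (9.09%, against 1.57% of all genes). It had 2 near an IDR peak (18.2%).

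Among the 12 known or proposed DAF-12 targets, 1 had a region and 1 an IDR peak (8.33% each, against 1.57% and 0.825% of all genes). The region was in an intron of ceh-22, a homeobox factor of the pharynx, 497 bp from a start, with 25.7 pooled, 9.76 and 16.2. Replicate 1 was near its lower limit there, at rank 3865, and the summit window held none of the 10 motifs. Of the 9 heterochronic microRNAs none had a region, against 1, mir-241, for the IDR peaks (11.1%). Of 14 genes of the microRNA machinery, 1 had a region and 1 an IDR peak (7.14% each). The region was 971 bp upstream of ain-1, a GW182-related partner of Argonaute, with 24.96 pooled, 16.5 and 13.6. Of 25 dauer genes of the insulin and TGF-beta pathways, 1 had a region (4%) and none an IDR peak. It was daf-16, the FOXO factor, with a region in an intron 1733 bp from a start (26.9 pooled, 12.7 and 13.3). None of 22 Wnt genes had either. These lists are small, so a single gene sets each share.

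All microRNA genes together had more starts near the regions than near IDR peaks: 18 of 261 (6.90%) against 4 of 261 (1.53%). The shares over all genes were 1.57% and 0.825%. None was near both, which counts this small do not make unusual. The 18 came from 10 of the 295 regions, since clustered genes share one, and 4 of the 10 were on X. The IDR peaks are the smaller set, at 150, so the counts of genes do not compare rates per region. The strongest lay in the cluster of mir-4921 and 4 further annotated microRNAs on X, with 31.5 pooled, 19.3 and 11.6. Its summit was 62 bp from the start of a tRNA gene and 847 to 1368 bp from those of the microRNAs. The next were near mir-62 (29.8 pooled, 10.4 and 20.2) and mir-354 (29.1 pooled, 13.6 and 16.96), and one region served mir-54, mir-55, mir-56 and a neighbour (28.1 pooled, 15.05 and 12.5). The mir-354 region was 880 bp from that start, had ekl-4 as its nearest start at 129 bp, and is also the rps-20 region below. Regions also lay within 2 kb of mir-2, mir-71 and mir-124.

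Ribosomal protein genes lay near both sets. Of 78, 6 had a region within 2 kb and 7 an IDR peak, and 13 had either. None had both, but counts this small leave little room for a shared gene, and the overlap was not tested. Besides rps-26, those near a region were rps-20 (29.1 pooled, 13.6 and 16.96, 268 bp from the start), rpl-11.2 (28.1 pooled, 10.9 and 16.97, 367 bp), rps-24 (26.3 pooled, 9.35 and 11.5, 1979 bp), rpl-38 and rps-19. The shares, 7.69% and 8.97%, stand beside 1.57% and 0.825% of all genes.

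Chaperone genes had 2 of 64 near a region (3.12%, against 1.57% of all genes) and 7 near an IDR peak (10.9%, against 0.825%). They were cct-8, a subunit of the cytosolic chaperonin (31.9 pooled, 16.1 and 17.7, 488 bp), and hsp-3, an Hsp70 of the endoplasmic reticulum (29.9 pooled, 16.6 and 12.5, 189 bp). Lipid metabolism genes had 4 of 79 near a region (5.06%) and none near an IDR peak: fat-3, a fatty acid desaturase (27.6 pooled, 12.5 and 15.3, 373 bp), the acyl-CoA synthetases acs-17 (26.3 pooled, 11.7 and 13.97, 95 bp) and acs-13 (21.7 pooled, 10.5 and 11.3, 390 bp), and the desaturase fat-2 (21.0 pooled, 9.32 and 11.7, 1210 bp). Of 274 nuclear hormone receptors, 5 had a region (1.82%), a share near the 1.57% of all genes: nhr-142 (31.2 pooled, 14.9 and 14.3), nhr-10, nhr-49, a regulator of fat use (28.5 pooled, 14.1 and 13.6, 213 bp), daf-12 and nhr-71.

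The remaining lists held few. The insulin-like peptide ins-10 was 1 of 39 (2.56%), where the IDR peaks had 4, and nlp-45 was 1 of 109 neuropeptide genes. Of 93 homeobox genes, ceh-22 and ceh-74 had a region (2.15%). The chemoreceptors had 3 of 1224 (srh-16, srh-2 and str-207), the cuticle collagens 1 of 177 (col-55) and the cytochromes P450 1 of 75 (cyp-35A3), all at or below the 1.57% of all genes. The 18 genes of moulting and the 13 of GATA factors and endoderm had none. Of 612 tRNA genes 11 had a region (1.80%) and 4 an IDR peak (0.654%). Of 346 snoRNA genes 12 had a region (3.47%) and 15 an IDR peak (4.34%). Over all 46890 annotated genes, noncoding ones included, the shares were 1.40% and 0.618%. On this count of genes within 2 kb, the tRNA shares were near the background. Counted by regions at the narrower distance of 500 bp, a tRNA start lay near 6 of the regions (2.03%). The same held for 0.667% of IDR peaks, 1.02% of one-replicate regions and 0.817% of all pooled regions. The difference between these shares was not tested.

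Some windows shared long runs of letters. The 4 windows below are shown because each pair shares the run in capitals, picked after the windows were compared, on the plus strand of ce11 (RefSeq WBcel235).
mir-4921 and tRNA Y59E1B.t2, chrX:1880776-1880876: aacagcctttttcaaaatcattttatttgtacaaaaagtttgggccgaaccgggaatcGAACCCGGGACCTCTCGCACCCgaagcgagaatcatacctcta
tRNA W09D6.t2, chrIII:11066844-11066944: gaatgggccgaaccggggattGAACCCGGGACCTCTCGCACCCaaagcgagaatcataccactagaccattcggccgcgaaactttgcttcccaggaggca
rpl-11.2 upstream, chrX:2242935-2243035: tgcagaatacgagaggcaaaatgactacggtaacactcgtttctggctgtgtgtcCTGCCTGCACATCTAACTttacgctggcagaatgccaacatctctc
mir-5549 upstream, chrIII:6972056-6972156: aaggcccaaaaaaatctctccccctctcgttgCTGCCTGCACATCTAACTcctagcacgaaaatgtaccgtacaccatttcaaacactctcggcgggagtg

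The first pair shared 22 letters and lay 62 and 25 bp from starts of tRNA genes, with 31.5 and 29.1 pooled. That run was in 3 of the 30000 windows, 2 of them these. Reads from near-identical tRNA copies can be split or misplaced in alignment, and their part in these values was not tested. The second pair, upstream of rpl-11.2 and of mir-5549 (26.2 pooled, 15.3 and 11.04, 21 bp from the start), shared 18 letters found in no other window. A 13-letter core of it, CCTGCACATCTAA, was in 7 of the 30000 windows: 4 of the regions (rpl-11.2, mir-5549, the tmem-107 and rps-26 region, and ash-2, a gene for a histone methyltransferase subunit), 2 IDR peaks and 1 one-replicate region. This core was chosen from the same windows and is a description.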

How the data were processed

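ChIP-seq of eGFP-tagged DAF-12 was analysed from lists in narrowPeak form, 1 per replicate, 1 from pooled reads and 1 of IDR peaks. According to the notes deposited with the lists, a read alignment and a control alignment went into each. The signal per region is the authors' deposited value, with its scale not stated. The sources used here name no aligner, caller or IDR threshold. The labels give 1 group of 2 biological replicates. Depth is unknown, and no column belonged to another sample.

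Coordinates are 1-based on ce11. Summits were matched to 295 regions by the rule in the report and annotated with Ensembl release 115 and RefSeq symbols, which matched 20226 of 20234 genes for proteins or microRNAs. Shares were compared with 2-sided Fisher's exact tests (Python 3.11.15, SciPy 1.17.1, pandas 2.3.3, numpy 2.4.6), adjusted by Benjamini-Hochberg over 36 tests at 0.05, and given exact Clopper-Pearson intervals at 95%. Fewer tests were adjusted together in some alternatives. On X alone and on autosomes alone the tests of the share on X dropped out. Without replicate 1 or 2 only the tests against the IDR peaks were adjusted together. Tests and intervals treat regions as independent and cover the counting of regions only, not the spread between animals or cultures. The code was tested on simulated lists.

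The regions and the 22 gene lists were chosen with earlier results of these data known. Named genes were those with the nearest TSS within 2 kb of the 20 regions of highest pooled signal, all list members near a region for timing, dafachronic acid, heterochronic microRNA and target lists, and up to 4 genes of each other list by pooled signal. Further genes (those nearest to the 4 of the 20 beyond 2 kb, those within 2 kb of an IDR summit, further microRNAs and ribosomal genes, nhr-71, the tRNA genes, ash-2, suca-1, F13E6.1, and the IDR gene mir-241) were named after their values were seen. The listed names scdh-1 and imb-4 were not matched. The ce10 lists served only for a count of members.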

Additional observations from a re-analysis of the deposited data

How the results depend on the processing

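The number of regions followed the rule: 116 with the top 2500 of each replicate, 758 with the top 10000, 173 at 50 bp and 458 at 200 bp, and 3355 to 3922 without replicate 2 or without replicate 1. Merging summits within 500 bp and the ce10 lists moved it by less than 1.5-fold. A 1 kb TSS window gave 203 genes in place of 318. Against the one-replicate regions, AGTGCA and GAGAG kept their direction and passed under every alternative run (leaving out a replicate leaves no one-replicate set to compare with). Calls were lost as follows, given as odds ratios. Coding exons against IDR peaks gave 5.585 at ranks to 1000, 3.333 at the top 2500 and 5.302 at 35 to 50% GC, and against one-replicate regions 0.57 at ranks to 1000. Upstream sequence against IDR peaks gave 0.612, 0.8191 and 0.6456 in the same order, and against one-replicate regions 1.406 at ranks to 1000 and 1.499 at 50 bp. A TSS within 500 bp against one-replicate regions gave 1.513 at ranks to 1000. AGTGCG against one-replicate regions gave 1.908, 1.605 and 1.535, and GAGAG against IDR peaks 0.5492, 0.6486 and 0.6686, at ranks to 1000, the top 2500 and 35 to 50% GC. Each of these settings leaves fewer regions, and each of these odds ratios also lies nearer to 1 than in the main comparison. The cause was not tested. Calls were gained at 50 bp by 5′ UTR (2.922) and AGTGTG (2.155) against one-replicate regions, and at 100 bp to either side by TTATCA (2.25) against IDR peaks. Without replicate 1 or 2 the set grows to 3922 or 3355 regions, most of them one-replicate regions. In these sets calls against IDR peaks were gained by TSS within 500 bp (0.5668 to 0.6228), introns (1.996 to 2.027), AGTGTG (0.2364 to 0.3227), AGTGCA (0.3028 to 0.334), AGTGCG (0.2272 to 0.2917), AGTACA (0.3783 to 0.4311) and TTATCA (2.698 to 2.711). Coding exons moved to 13.76 to 14.54, upstream sequence to 0.3297 to 0.3435 and GAGAG to 0.1979 to 0.2394. Odds ratios that crossed 1, none of them past the threshold, were these. X against IDR peaks gave 0.8102 (ranks to 1000), 0.9857 (without regions near IDR summits), 0.9818 (without regions near daf-12 and unc-119), 0.9555 (50 bp), 0.7918 (top 2500), 0.7316 (35 to 50% GC) and 0.74 to 0.7639 without replicate 1 or 2. TSS within 500 bp against IDR peaks gave 2.281 (X only), 1.043 (ranks to 1000), 1.051 (top 2500) and 1.09 (35 to 50% GC). At the top 2500, AGGACA (1.309), AGGTCA (1.036) and AGTGCA (1.024) crossed against IDR peaks, and 3′ UTR (0.94), other intergenic (0.977), AGGTCA (1.508), AGTTCA (1.675) and TTATCA (0.94) against one-replicate regions. At 35 to 50% GC these were AGGACA (1.968) and AGTGCA (1.126) against IDR peaks, and 3′ UTR (0.6842), AGTACA (0.93) and TTATCA (0.9477) against one-replicate regions. At ranks to 1000 TTATCA gave 0.9056 against one-replicate regions. At 50 bp 5′ UTR (1.317) and AGGACA (1.012) crossed against IDR peaks. With 100 bp to either side AGGACA gave 1.073 against IDR peaks and AGGTCA 1.168 against one-replicate regions. The heptamer TGAGTCA was in no IDR window and has no odds ratio there. The alternatives on pooled rank, GC content and X were chosen after seeing the data. No paired analysis was possible because the labels give only 1 group. The files give no counts, so precision at a single region is unknown, and with 2 replicates of 1 group no spread between cultures could be estimated for any share.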
